A study of Mus musculus with 6 samples.

Results

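Long cassette exons are internal exons of over 150 nt that a transcript can either carry or skip whole. They were taken from the splicing array table as every event typed as an alternative cassette whose name ends in a single length above that bound, which gave 843 exons in 811 genes. They made up 22.3% of the 3777 cassette events and 6.48% of the 13002 events of all kinds. Of the 843, 837 exons in 805 genes had a usable pair of exclusion and inclusion rows. Of the other 6, 4 had no value and 2 had a single row, and they are not described. A further 25 cassette events carry no single length in their names and lay outside the rule.

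The arrays measured total RNA from brain of 6 mice of a B6.CAST congenic line, in which a segment of chromosome 19 with the mRNA export factor gene *Nxf1* comes from *Mus musculus castaneus* on a C57BL/6J background. The 3 *Nxf1* CAST homozygotes and the 3 *Nxf1* B6 homozygotes formed 3 same-sex littermate pairs, 2 of females aged 46 and 23 days, and 1 of males in which the B6 mouse was 22 days old and the CAST mouse 23 days. No treatment is listed for any mouse. Every allele of the congenic segment differed between the genotypes together with *Nxf1*, so *Nxf1* and its linked neighbours cannot be told apart in these animals.

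A cassette exon is joined by one splice on each side when it is included, and a single splice joins its neighbours when it is skipped. An exon whose length is a multiple of 3 can be added or removed without shifting the reading frame, and one of another length changes the frame downstream and often brings in a premature stop codon. Brain is known for its rich use of cassette exons, and many splicing factors carry long, conserved "poison" exons whose inclusion sends the transcript to nonsense-mediated decay. NXF1 carries mature mRNA through the nuclear pore, and the comparison asked whether the genotype at *Nxf1* goes along with a different use of such exons.

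The study also followed a cassette exon of *Xpo4*, an export receptor of the importin beta family, on gels with the primer pair below. The primers are shown because *Xpo4* is also among the long cassette exons on the array, and the primer list does not say whether the exon is the same. Both are written 5′ to 3′ in lower case with no base singled out.
Xpo4 primer 1: tgcagtttgcaggcatattt
Xpo4 primer 2: agagaacccactctcggaca
The array event of *Xpo4* holds an exon of 155 nt on chromosome 14. The probes for skipping it read 149 and 118 in the pools called set A and set B below, and those for carrying it 166 and 155. The shift between the sets, a log2 ratio explained next, was -0.24.

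For each event the table lists the intensity of the probes for skipping (exclusion) and of those for carrying the exon (inclusion), each already pooled into 1 value for a set A and 1 value for a set B. The sets are not named by genotype there. The table's header defines its own score as mutant over wild type, and the study's methods define it as *Nxf1* CAST over *Nxf1* B6, so that set B is likely *Nxf1* CAST and set A likely *Nxf1* B6. The change between them is given as a shift, the log2 of set B's exclusion to inclusion ratio divided by set A's. A shift above 0 means relatively more skipping signal in set B. A shift beyond 0.5 in either direction, a 1.41-fold change of the ratio, is called past the threshold. No value per animal is listed, so no error between animals, no test and no p-value could be given, and every fold below compares 2 pooled values. Positions are printed as the table lists them, with the assembly not given in the sources used here, and each covers more than the exon itself (median span 5928 bp).

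The pooled intensities of the table ran from 43 to 13185, with a 10th percentile of 102, and 633 of the 837 exons lay at or above that level in all 4 values. Brain cell markers with events on the array differed little between the sets. The log2 of the summed intensity, set B over set A, was -0.10 to 0.11 for 7 of 12 neuronal markers, -0.08 to 0.00 for 4 of 10 myelin markers, -0.16 to 0.13 for 5 of 7 astrocyte markers, and -0.10 to 0.18 for 4 of 6 microglial markers. Endothelial markers gave -0.14 and -0.05 (2 of 6), and the choroid plexus marker *Folr1* gave -0.10 (1 of 5). The listed markers of tissues other than brain were few, with 0.18 and 0.21 for 2 of 5 blood markers, 0.13 and 0.39 for 2 of 5 muscle markers, and no event for any of 5 liver markers. The part of these differences in the shifts was not tested.

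Most long exons were used to a similar degree in both sets. The median shift was 0.07, with quartiles of -0.12 and 0.25, beside a median of 0.03 over all 12547 events with a shift and 0.04 over the 2890 cassette exons of up to 150 nt. Of the 837 long exons, 71 were past the threshold, which is 8.48% of them, against a background of 7.24% of all events (909) and 8.55% of the shorter cassette exons (247). The share of long exons past it was therefore about that of shorter ones.

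Direction was uneven. Toward exclusion in set B, 52 long exons (6.21%) were past the threshold, beside 4.52% of all events (567) and 5.36% of shorter cassettes (155). Toward inclusion the count was 19 (2.27%), beside 2.73% of all events (342) and 3.18% of shorter cassettes (92). Exclusion thus made up 73.2% of the long exons past the threshold, 62.4% of all events past it and 62.8% of shorter cassettes. With the median shift of all events subtracted first, these splits were 63.9% for the long exons and 50.6% for all events. The animals behind all these events are the same 6, and whether the classes differ could not be tested.

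**Figure D1:**
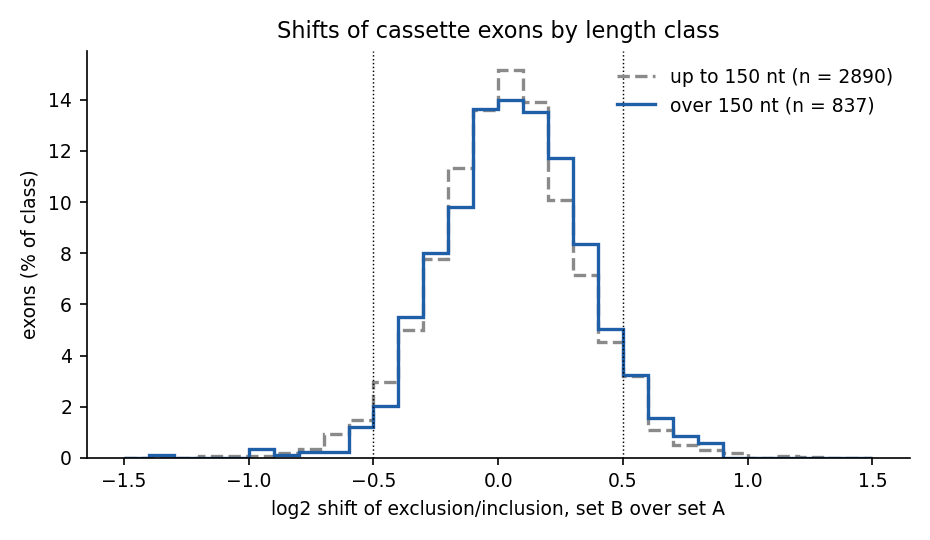
Distribution of the log2 shift (horizontal axis) as a percentage of exons in each class (vertical axis) for 837 cassette exons over 150 nt (solid line) and 2890 of up to 150 nt (dashed line), in bins of 0.1, with dotted lines at the thresholds. The 2 outlines nearly coincide, with medians of 0.07 and 0.04.

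The exons just inside and just outside the length bound had much the same range. The 13 exons of 151 nt had shifts of -0.34 to 0.66 with a median of -0.04, and 1 of them, in *Gm1964* (now *Mfsd2b*), was past the threshold. The 20 exons of 150 nt, just short of the rule, had shifts of -0.49 to 0.86 with a median of -0.03, and 1 of them, in *Cyp2c70*, was past it. At the fold threshold itself, *4930486G11Rik* (now *Mei4*) and *Itgb4* lay just past it at 0.50 and -0.50, and *Aup1* and *Ptpdc1* lay just within it at 0.50 and -0.50 after rounding.

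In the shift toward exclusion, the skipping signal moved in every exon. The exclusion intensity was higher in set B in all 52, and the inclusion intensity was also lower in 45 of them. The exclusion side changed by more than the inclusion side in 50. The median log2 change was 0.49 for exclusion and -0.15 for inclusion. The 155 shorter cassettes past the threshold toward exclusion were alike, at 0.47 and -0.14. The 52 long exons lay on 19 chromosomes and had a median inclusion share of 79.0% in set A and 71.4% in set B. Over all 837 long exons the share was 61.8% and 61.2%. For the shorter cassettes it was 71.0% and 61.7% in the 155, and 61.3% and 60.6% over all 2890. Exons picked for a shift toward exclusion have a lower share in set B by that choice, so their share in set A alone is tied to it. The inclusion share is the inclusion intensity as a percentage of both intensities together, and since probes respond unequally it is not a fraction of molecules. In 18 of the 52 the exclusion intensity in set A was below 102, the dim end of the table.

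Among the exons with all 4 intensities at or above that level, the 10 highest shifts ran from 0.69 to 0.86. In *Ttpal*, which encodes a relative of the tocopherol transfer protein, the exclusion intensity of the 194 nt exon stood at 152 (set A) and 231 (set B), with inclusion intensities of 2118 and 1777, always given in that order. Its shift was 0.86, with an inclusion share that went from 93.3% to 88.5%. The exon of *Nudt14*, a Nudix hydrolase of UDP-sugars, measured 238 nt and had exclusion intensities of 178 and 311, beside inclusion intensities of 184 and 180. Its shift of 0.84 therefore came almost wholly from the skipping side. The pair of exons shows both forms of the change, a strongly included exon with a small skipped signal and an exon with similar signals for skipping and inclusion in set A.

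The 186 nt exon of *Tbc1d20*, a GTPase-activating protein for Rab proteins, had the brightest exclusion signal among these. It measured 710 and 1025, the inclusion intensity 1158 and 959, and the shift was 0.80. Its inclusion share passed from above to below 50%, from 62.0% to 48.3%. For *Ap3m1*, the medium subunit of the AP-3 adaptor that sorts cargo to lysosomes, the 276 nt exon had exclusion intensities of 261 and 361, inclusion intensities of 849 and 715, and a shift of 0.72. A second long exon of *Ap3m1* with the same outer boundary, of 172 nt, had a shift of 0.22, with exclusion intensities of 74 in both sets. The 2 spans overlap, so these are not independent measurements of the gene.

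In *Trio*, a guanine nucleotide exchange factor that acts in axon growth, a 222 nt exon at chr15:27673935-27678235 had exclusion intensities of 452 and 654 and inclusion intensities of 891 and 783. The shift was 0.72, and the length leaves the frame intact. *Mrps36*, named for the small subunit of the mitochondrial ribosome, had 235 and 368 for exclusion of its 182 nt exon and 699 and 641 for inclusion, a shift of 0.77. In both exons the skipping signal was higher and the inclusion signal lower in set B.

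The remaining exons of the 10 highest were close together. *Coasy*, which makes coenzyme A, has a 708 nt exon with exclusion intensities of 117 and 158, inclusion intensities of 356 and 290 and a shift of 0.73. *Prodh2*, an enzyme of hydroxyproline breakdown, had a shift of 0.70 for an exon of 158 nt, with 158 and 217 for exclusion and 360 and 304 for inclusion. *Atp5l2* had a shift of 0.79 for an exon of 161 nt, with 154 and 208 for exclusion and 1096 and 858 for inclusion. Its current symbol, *Atp5l2-ps*, marks a pseudogene of an ATP synthase subunit, so RNA of near-identical copies may share these probes and the value is uncertain. *Cybasc3* (now *Cyb561a3*), a cytochrome b561 of lysosomes, lies in the congenic segment and is given with its neighbours. Outside the set at or above the 10th percentile, the highest shift of any long exon was 0.89, for the 177 nt exon of the translation initiation factor gene *Eif4g1*, singled out here after its values were seen. Its exclusion intensities were 95 and 154 and its inclusion intensities 2073 and 1815.

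The 19 exons past the threshold toward inclusion mirrored this. The exclusion intensity was lower in set B in all 19, the inclusion intensity was higher in 12, and the exclusion side changed more in 15. They lay on 13 chromosomes, and their median inclusion share in set A was 61.9%, beside 48.4% for the 92 shorter cassettes past the threshold toward inclusion. In 5 of them the exclusion intensity in set B was below 102.

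The lowest shift of any long exon was in *Wdr33*, the subunit of the cleavage and polyadenylation machinery that binds the polyadenylation signal. Its 227 nt exon on chromosome 18 had exclusion intensities of 148 and 51, a 2.90-fold difference, beside inclusion intensities of 790 and 689. The study also assayed this gene on gels, and those assays were not analysed here. It reports no nominally significant difference between *Nxf1* alleles in gel assays of unlinked splice sites without a retroviral IAP insertion. Its main text does not name *Wdr33* among them. The shift was -1.34, the only one beyond 1 in either direction. The value of 51 is the lowest exclusion intensity of any long exon in set B, and with 32 added to each intensity the shift was -0.93.

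Among the exons with all 4 intensities at or above 102, *Shmt2* had the lowest shift. In this gene, the mitochondrial serine hydroxymethyltransferase, the 189 nt exon at chr10:126957207-126959364 had exclusion intensities of 209 and 114 and inclusion intensities of 340 and 357. Its shift was -0.94, and the inclusion share went from 61.9% to 75.8%. In *Abat*, the GABA transaminase that degrades the inhibitory transmitter, the 168 nt exon had exclusion intensities of 310 and 191, inclusion intensities of 2361 and 2558 and a shift of -0.81. *Atp5f1* (now *Atp5pb*), the b subunit of the mitochondrial ATP synthase, was unlike these in being mostly skipped, with an inclusion share of 8.74% in set A. The exclusion intensity of its 167 nt exon was 2244 and 1608, the inclusion intensity was 215 and 294, and the shift was -0.93.

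The next exons toward inclusion included those of *Ipo11* and *Sema3b*, which differed mainly on the inclusion side. *Ipo11*, an importin, had 144 and 122 for exclusion of its 215 nt exon and 306 and 449 for inclusion, a shift of -0.79 that rested mainly on the inclusion side. *Dot1l*, the methyltransferase of histone H3 lysine 79, had exclusion intensities of 364 and 180 for an exon of 631 nt, a 2.02-fold difference, inclusion intensities of 408 and 345, and a shift of -0.77. *Wdr33* and *Dot1l* were the only long exons whose exclusion intensity differed by over 2-fold between the sets, and no inclusion intensity did. *Sema3b*, a secreted semaphorin, had skipping signals of 118 and 116, and inclusion intensities of 231 and 356 for its 379 nt exon, giving -0.65.

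The last of the 10 were smaller. *Asphd2* had a shift of -0.61 for an exon of 215 nt, with exclusion intensities of 287 and 213 and inclusion intensities of 292 and 331. *Pigx*, which takes part in making GPI anchors, had -0.57 for an exon of 156 nt, with 234 and 150 for exclusion and 177 and 168 for inclusion. The unnamed transcript uc007imu-1 had -0.58 for an exon of 745 nt, with 195 and 113 for exclusion and 257 and 223 for inclusion. In *Asphd2* both sides moved apart, whereas in the other two both signals were lower in set B, the skipping signal by more.

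**Figure D2:**
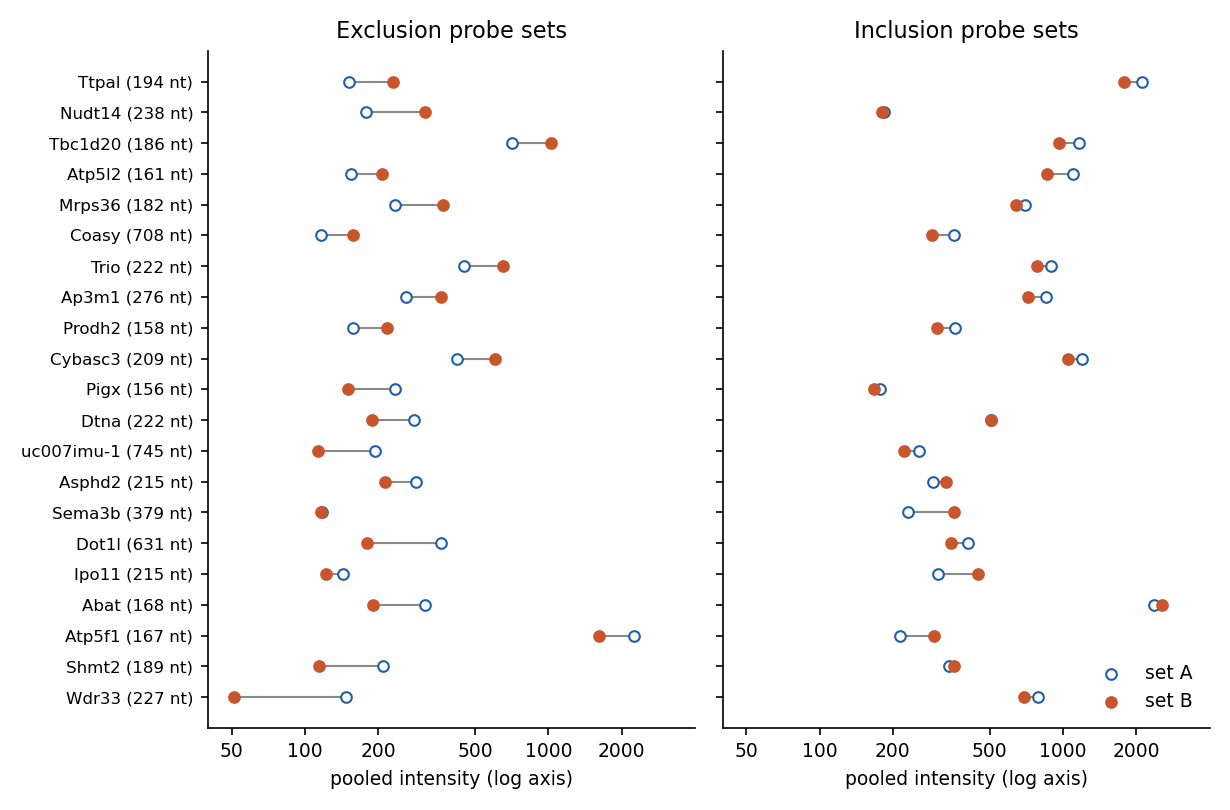
Pooled intensities (horizontal log axes) of the exclusion probes (left) and inclusion probes (right) in set A (open circles) and set B (filled circles), for the 10 highest and the 10 lowest shifts among exons with all 4 intensities at or above 102 and for *Wdr33*, ordered by shift. Exclusion values differ between the sets by more than inclusion values in most lines, and in *Sema3b* and *Ipo11* the inclusion values differ more. Each point is 1 pooled value with no error.

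How much an exon was included went along with how it moved. Of the 265 long exons with an inclusion share of 75 to 100% in set A, 30 were past the threshold toward exclusion and 6 toward inclusion, 13.6% together, with a median shift of 0.17. At shares of 50 to 75%, 17 and 9 of 284 were past it, with a median shift of 0.08. At 25 to 50% the counts were 5 and 3 of 197, with a median of 0.02, and below 25% they were 0 and 1 of 91, with a median of -0.03. Shorter cassette exons had a median shift of 0.09 in the highest bin, where 63 and 15 of 851 (9.17%) were past it, and in their lowest bin 5 and 11 of 320 were past it. The exclusion signal was dim where inclusion was high, with medians in set A of 123 for the long and 124 for the shorter exons in the highest bin. Set A enters both the share and the shift, and the part of dim exclusion signals in this pattern was not tested.

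**Figure D3:**
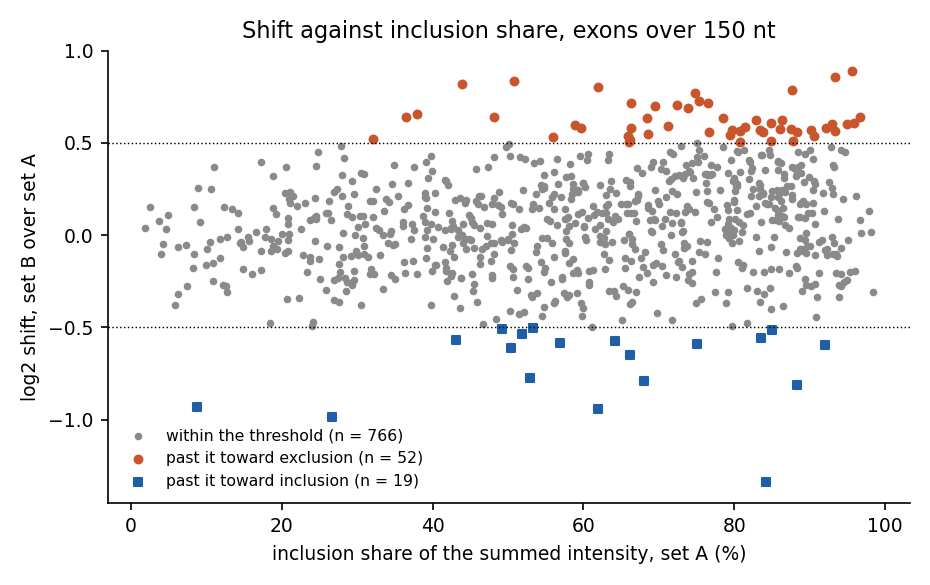
Log2 shift (vertical axis) against the inclusion share in set A in percent (horizontal axis) for 837 long cassette exons, with 52 past the threshold toward exclusion (circles above the upper dotted line) and 19 toward inclusion (squares). Points past either line lie mostly at shares over 50%, with 47 of the 52 and 15 of the 19 there, beside 549 of all 837.

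The exons at the ends of the inclusion range did not pass the threshold. The lowest shares in set A were 1.82% for a 156 nt exon of *Enpp2*, which encodes the lysophospholipase D autotaxin, 2.53% for *Rnf207*, 3.64% for *Sept11*, a septin, 4.02% for *Kif2a*, a microtubule-depolymerizing kinesin, and 4.19% for *Cck*, the neuropeptide cholecystokinin. In *Enpp2* the exclusion intensity was 3718 and 4094 and the inclusion intensity 69 and 74, a shift of 0.04. The highest shares were 98.5% for *Ccni*, 98.2% for *Atp2b4*, a plasma membrane calcium pump, 97.9% for *Scamp5*, a synaptic vesicle protein, 96.8% for *Slc30a5*, a zinc transporter, and 96.7% for *Clk4*, a kinase of SR proteins. In *Ccni*, a cyclin, the exclusion intensity was 66 and 60 and the inclusion intensity 4197 and 4730, a shift of -0.31. 

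Length itself ranged from 151 to 8104 nt, with a median of 197 nt and quartiles of 168 and 261 nt. Over 300 nt there were 163 exons (19.5%), over 600 nt 74 (8.84%) and over 1000 nt 38 (4.54%). Of exons of 151 to 200 nt, 27 were past the threshold toward exclusion and 9 toward inclusion (8.09% together, exact 95% binomial interval 5.73 to 11.0%). The counts were 13 and 5 at 201 to 300 nt (7.86%, 4.72 to 12.1%) and 2 and 2 at 301 to 600 nt (4.49%, 1.24 to 11.1%). Over 600 nt they were 10 and 3 of 74 (17.6%, 9.70 to 28.2%). These intervals cover only the number of exons counted, not differences between animals, and are no test of length. The background was 7.24% of all events and 8.55% of cassette exons of up to 150 nt. Of the 74 exons, 78.4% had an inclusion share over 50% in set A, beside 65.6% of all long exons. Their median exclusion intensity in set A was 192, beside 220 over all long exons. The part of either in the count was not tested.

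The 10 longest exons encode large stretches of protein and, with 1 exception, lay near 0. The longest, of 8104 nt, belongs to *Mtap1a* (now *Map1a*), a microtubule-associated protein of neurons. Its exclusion intensity was 358 and 389 and its inclusion intensity 3386 and 3256, a shift of 0.18 at an inclusion share of 90.4%. *Naca*, a chaperone of nascent chains whose 5916 nt exon gives a muscle form, was mostly skipped, with exclusion intensities of 877 and 853, inclusion intensities of 234 and 202 and a shift of 0.17. *Rtn4*, whose long exon of 2361 nt separates the large isoform Nogo-A from the shorter ones, had exclusion intensities of 89 and 79, inclusion intensities of 1035 and 971, and a shift of -0.08.

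The same held for *Rai1* (5527 nt, 0.12), *Tacc2* (5121 nt, 0.09), *Mprip* (3804 nt, 0.04), *Myo15* (3762 nt, 0.03), *Vcan* (2880 nt, 0.09) and *Ttn* (2646 nt, -0.03). *Vcan* encodes versican, a proteoglycan of the brain matrix, and *Ttn* the sarcomere protein titin. The exception was *Ncoa6*, a coactivator of nuclear receptors, whose 2976 nt exon had exclusion intensities of 538 and 736 and inclusion intensities of 2265 and 2098. Its shift was 0.56, and the inclusion share went from 80.8% to 74.0%.

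Fewer of the long exons than of the shortest ones had a length that keeps the reading frame. A length divisible by 3 was found in 404 of the 837 (48.3%), beside 65.4% of cassette exons of up to 60 nt and 50.7% of those of 61 to 150 nt. Within the long exons the share was 44.0% at 151 to 200 nt, 49.3% at 201 to 300 nt, 56.2% at 301 to 600 nt and 60.8% over 600 nt. The share past the threshold was 7.18% among exons divisible by 3 (21 toward exclusion and 8 toward inclusion) and 9.70% among the others (31 and 11).

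**Figure D4:**
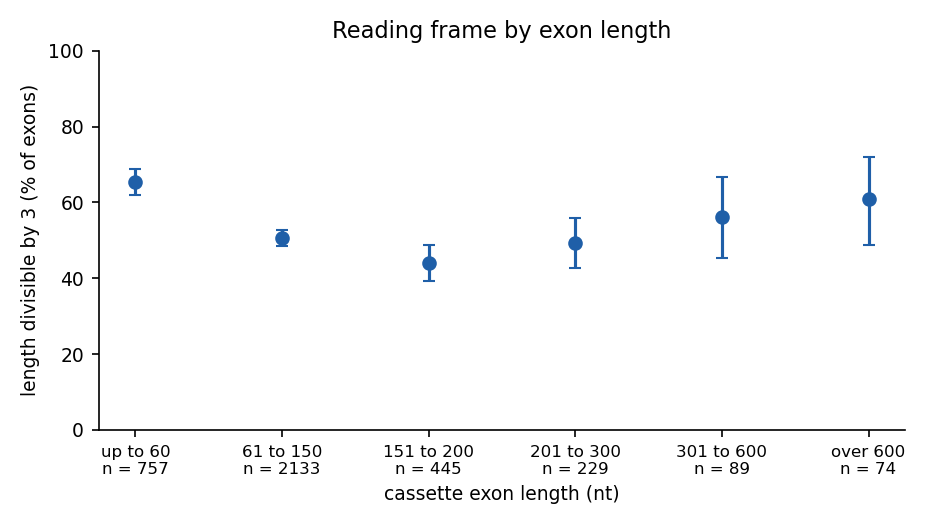
Percentage of cassette exons whose length is divisible by 3 (vertical axis) by length class in nt (horizontal axis), with exact 95% binomial intervals over the exons. The share falls from 65.4% at up to 60 nt to 44.0% at 151 to 200 nt and is 60.8% over 600 nt.

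Of 16 exons in 16 genes of a list of splicing factors, 4 had a length divisible by 3, and 2 were past the threshold toward exclusion and 1 toward inclusion, with a median shift of 0.05. SR protein genes carry the best known poison exons. In *Sfrs6* (now *Srsf6*) the 268 nt exon had exclusion intensities of 649 and 835 and inclusion intensities of 962 and 827, a shift of 0.58. *Sfrs3* (now *Srsf3*) had a shift of 0.09 for an exon of 456 nt, with 578 and 627 for exclusion and 1405 and 1434 for inclusion. *Sfrs7* (now *Srsf7*) had 0.07 for an exon of 460 nt, with 770 and 785 for exclusion and 1365 and 1324 for inclusion. Of these SR protein exons, that of *Sfrs6* was the one past the threshold.

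The SR-like genes lay near 0 as well. In *Sfrs10*, the 276 nt exon had exclusion intensities of 2067 and 1774 and inclusion intensities of 349 and 308, a shift of -0.04, and in *Tra2a* the 306 nt exon had a shift of 0.03. *Snrp70* (now *Snrnp70*), of the U1 snRNP, had a shift of -0.30 for an exon of 1360 nt, with 387 and 299 for exclusion and 671 and 640 for inclusion. *Syncrip*, an hnRNP-like protein of neuronal RNA granules, had 298 and 396 for exclusion of a 160 nt exon and 805 and 764 for inclusion, which gave 0.49, within the threshold. *Hnrnpr* had 0.19 for an exon of 166 nt, with 226 in both sets for exclusion.

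The other splicing factor exons past the threshold had dim signals. *Mbnl3*, a muscleblind protein of the X chromosome, had exclusion intensities of 87 and 167, inclusion intensities of 68 and 74 and a shift of 0.82 for an exon of 247 nt, while the 1049 nt exon of its relative *Mbnl1* had -0.03. *U2af2*, the large subunit of the factor that reads the polypyrimidine tract, had exclusion intensities of 110 and 70 and inclusion intensities of 1263 and 1215, a shift of -0.60. With 32 added to each intensity it was -0.42. Its listed position, chr7:5018120-9225644, is far longer than that of any other long exon (4207525 bases).

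Of 16 exons in 12 genes of adhesion and the extracellular matrix, 15 had a length divisible by 3, 1 was past the threshold, toward inclusion, and the median shift was -0.08. The Kunitz protease inhibitor domain of the amyloid precursor protein family is encoded by such an exon. In *App* the 168 nt exon had exclusion intensities of 4322 and 4558 and inclusion intensities of 1821 and 1917, a shift of 0.00 at an inclusion share of 29.6%. In its relative *Aplp2* the exon of the same length had exclusion intensities of 435 and 354 and inclusion intensities of 2199 and 2304, a shift of -0.36 at an inclusion share of 83.5%. The skipped signal was the larger in *App* and the included one in *Aplp2*, in both sets.

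Fibronectin, *Fn1*, has 3 long cassette exons on the array, of which those of 270 and 273 nt have the lengths of its known extra domains EIIIA and EIIIB. The exon of 270 nt had exclusion intensities of 1331 and 1366 and inclusion intensities of 434 and 415, a shift of 0.10, and that of 273 nt had 1881 and 1829 beside 959 and 813, a shift of 0.20. The exon of 165 nt was mostly included, with exclusion intensities of 116 and 156 and inclusion intensities of 591 and 589, and its shift was 0.43. All of them lay above 0 and within the threshold.

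In *Ncam1*, the neural cell adhesion molecule, the 801 nt exon that gives the longest cytoplasmic tail had exclusion intensities of 1192 and 864 and inclusion intensities of 2143 and 1950, a shift of -0.33. *Ptprf*, a receptor tyrosine phosphatase, had opposite values at its 2 long exons, 0.49 for 579 nt (exclusion 520 and 700) and -0.37 for 306 nt (exclusion 355 and 328). *Itgb4*, the integrin beta 4 gene, had -0.50 for 159 nt, with 163 and 141 for exclusion and 186 and 228 for inclusion, and -0.26 for 195 nt. The guidance and lipoprotein receptors *Unc5a* and *Lrp8* had -0.26 and -0.37, the adhesion GPCR gene *Lphn3* (now *Adgrl3*) 0.00, and *Chl1* -0.09. *Mbp*, myelin basic protein, was the one gene of the list with an exon not divisible by 3 (431 nt), at -0.07.

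The cytoskeletal and scaffold list held 17 exons in 16 genes, 13 of them divisible by 3, with a median shift of 0.02. The one past the threshold was in *Dtna*, the dystrophin-associated protein dystrobrevin alpha, where the 222 nt exon had exclusion intensities of 282 and 189, inclusion intensities of 506 and 505 and a shift of -0.57. The ankyrins had 0.37 (*Ank1*, 375 nt) and 0.07 (*Ank2*, 183 nt, with exclusion intensities of 5243 and 5626), and the junction scaffold *Magi1* had -0.37 for 168 nt. The spectraplakins *Dst* and *Macf1* share an exon length of 327 nt and had shifts of 0.16 and -0.04.

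*Sorbs2*, an adaptor protein of the actin cytoskeleton, has an exon of 1581 nt with exclusion intensities of 1179 and 1193 and inclusion intensities of 4502 and 4607, a shift of -0.02. *Mtap6* (now *Map6*), a microtubule-stabilizing protein, had 0.35 for 197 nt.

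None of the 6 exons in 5 genes of ion channels and transmitter receptors was past the threshold, and their median shift was -0.10. The largest value was that of *Grin2b*, an NMDA receptor subunit, where an exon of 239 nt had exclusion intensities of 1531 and 1572 and inclusion intensities of 1633 and 1248, a shift of 0.43. *Kcnma1*, the large-conductance calcium-activated potassium channel, had -0.10 at both of its long exons, of 174 nt (exclusion 1253 and 1269) and 156 nt (exclusion 167 and 149). *Trpc1* had -0.20, *Clcn3* -0.14 and *Cacnb4* 0.07. Of the 6, only the *Kcnma1* exons were divisible by 3.

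The list of transcription and chromatin regulators had the highest median, 0.18, over 21 exons in 20 genes, of which 15 were divisible by 3 and 1 was past the threshold. Its quartiles were -0.20 and 0.29, and 11 of the 21 shifts (52.4%) were above 0, beside 58.8% of all long exons. Over all 415 events of the listed genes the median was 0.06. The exon past the threshold was in the zinc finger gene *Zfp410*. It measured 180 nt and had exclusion intensities of 65 and 78, inclusion intensities of 273 and 231 and a shift of 0.50. *Ncor1*, a nuclear receptor corepressor, had -0.20 for 174 nt, with exclusion intensities of 1923 and 1633 and inclusion intensities of 1424 and 1393. *Mbd5* (1203 nt) had 0.31, *Zfp106* (2169 nt) 0.37, *Mll3* (now *Kmt2c*, 213 nt) -0.36 and *Bptf* (162 nt) -0.30.

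Over the 6 lists, 7 of 78 long exons (8.97%) were past the threshold, beside the 8.48% of all long exons. The lists name functions that are known to use cassette exons and were not tested against other genes.

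**Figure D5:**
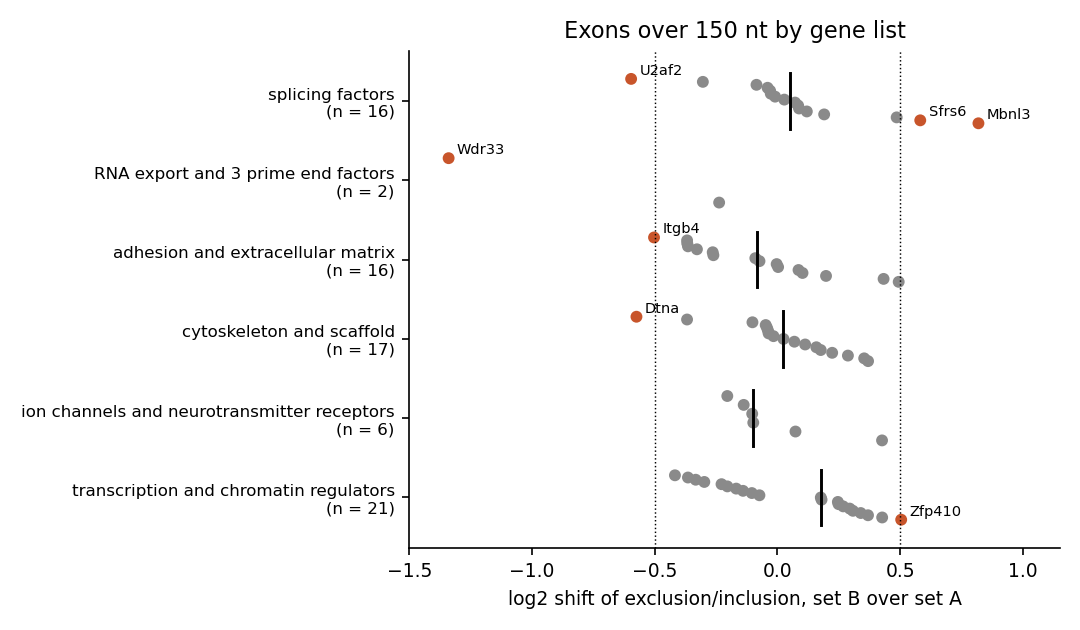
Log2 shifts (horizontal axis) of the long cassette exons in each gene list (rows), 1 point per exon, with those past the dotted thresholds in orange and named, and a vertical bar at the median of lists with over 2 exons. Of 78 points 7 (8.97%) are past a threshold, beside 8.48% of all long exons.

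In the congenic segment of chromosome 19, the median log2 change of the exclusion intensity was 0.26, beside 0.06 over all long exons. The segment was taken from 7053631 to 11866235, the outer ends of the events of 5 genes that the study places in it. It holds 8 long exons, with a median shift of 0.15, 7 of them above 0 and 2 past the threshold. Over all long exons 58.8% were above 0 and 8.48% past the threshold, and over all events 55.4% and 7.24%. On the whole of chromosome 19, 23 of 30 long exons were above 0, and on the X chromosome 15 of 18. *Cybasc3*, at chr19:10656966-10661201, had exclusion intensities of 423 and 601 for its 209 nt exon and inclusion intensities of 1194 and 1051, a shift of 0.69. *Polr2g*, a subunit of RNA polymerase II, had 88 and 112 for exclusion of a 160 nt exon and 841 and 738 for inclusion, a shift of 0.54.

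The other 6 were *Trpt1* (170 nt) at 0.27, *Slc22a8* (155 nt) at 0.17, *Rab3il1* (219 nt) at 0.14, *Mark2* (162 nt) at 0.08, *Dnajc4* (162 nt) at 0.05 and *Cd6* (303 nt) at -0.03. In this segment the probes meet *castaneus* sequence in one genotype, so a difference in splicing and a difference in how well the probes bind cannot be told apart.

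In 31 genes more than 1 long exon was measured, 63 exons in all, and 24 of these genes had all shifts on the same side of 0. The spans of the exons overlapped in 6 of the 31. Such exons share transcripts and some share probes, so the counts above are of exons and not of independent genes.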

How the data were processed

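Total RNA from brain of 6 mice was hybridized by the study to Affymetrix MJAY splicing arrays, 1 per mouse. The authors' deposited table, made with OmniViewer per the file headers and, per the submitters' processing notes, Affymetrix Power Tools, lists pooled exclusion and inclusion intensities, as whole numbers, for sets A and B in a paired and in a standard comparison. Background correction, array normalization and genome assembly are not given in the sources used here. The table's separation scores (log2 of the mutant over wild-type ratio of skipping to inclusion) and q-values are the authors' own comparison and were not used. Of the deposited intensities, those of the paired comparison were used, with no value added in the main setting.

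An event was kept when its exclusion and inclusion rows mirrored each other, since 8 of the long exons' names had more than 2 rows and 2 had 1. Symbols were updated through RefSeq names (GRCm38.p6): of the 805 genes 646 were current, 112 matched a synonym and 47 had no match. Of 790 positions checked, 80 lay within 1000 bp of their gene's span in GRCm38, so the listed positions follow another assembly and were not converted. With 1 pooled value per set, precision is limited by the number of arrays and unknown. Rounding to whole numbers could move a shift past the threshold by at most 0.04.

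Exons named were the 10 highest and 10 lowest shifts among those with all intensities at or above the 10th percentile (102), those of 6 gene lists, the 10 longest, those in genes the study assayed on gels, those in the congenic segment, the 5 highest and 5 lowest inclusion shares, those beside the bounds, and those with an intensity changed over 2-fold. Some exons that this rule names are not reported here. The exons and lists were chosen with earlier results of these data known. Alternatives were a floor on intensities, 32 added to each, centring, 1 event per gene, no congenic segment, exons over 200 nt and thresholds of 0.4, 0.6 and 1. Tables were computed with pandas 2.3.3 and numpy 2.4.6 under Python 3.11.15, intervals with scipy 1.17.1, plots with matplotlib 3.10.9, and the scripts were tested on simulated data.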

Additional observations from a re-analysis of the deposited data

How the results depend on the processing

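No paired analysis was possible because the deposited columns are already pooled over the littermate pairs, and for the same reason no animal could be left out. In the main setting 71 of 837 long exons (8.48%) were past the threshold. With all 4 intensities at or above 102 the count was 45 of 633 exons (7.11%). With 32 added to each intensity it was 38 of 837, and for exons over 200 nt it was 35 of 392. The floor and the length bound leave fewer exons to count. At thresholds of 0.4, 0.6 and 1 the count was 130, 34 and 1. Toward exclusion the count of 52 became 32, 27, 25, 94, 25 and 0 in the same order. Toward inclusion the count of 19 became 11 with 32 added, 10 over 200 nt, 36 at 0.4, 9 at 0.6 and 1 at 1. All 45 were among the 71 by construction, since the floor removes exons and changes no shift. All 38 were among the 71 as well. The larger drop with 32 added follows from its construction, since it pulls dim ratios toward 0. With the median shift of all events (0.03) subtracted, 72 were past it, 65 of them shared, 46 toward exclusion and 26 toward inclusion, and the share of long exons above 0 went from 58.8% to 54.4%. A length divisible by 3 was found in 48.3% of the exons and in 53.1% of those over 200 nt. Taking 1 event per gene (70 past it) or leaving out the congenic segment (69) moved the count by less, and reading the inclusion rows gave the same values by construction. No named shift past the threshold changed sign in the alternatives recomputed for it. Some shifts near 0 did so when the median of all events was subtracted. That of *App* went from 0.00 to -0.03 and that of *Myo15* from 0.03 to -0.01. An intensity below 102 in 204 of the 837 exons limits the precision of their ratios.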

Other observations

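Other genes with more than 1 long cassette exon gave further values. *Pbrm1*, a subunit of the PBAF chromatin remodeller, had -0.18 for 156 nt and -0.31 for 165 nt, from spans that start at the same position. *Iqsec3*, an exchange factor of inhibitory synapses, had 0.37 for 950 nt and -0.20 for 271 nt. These genes were singled out after their values were seen, and none of these exons was past the threshold.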
